A study of Homo sapiens with 6 samples.

Results

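The genes that encode the proteins of the cytosolic ribosome were followed in 6 subcutaneous tumours of PATU, a human cell line of pancreatic ductal adenocarcinoma, grown in nude mice. All 6 tumours carried a doxycycline-inducible short hairpin (ishME3) against ME3, a mitochondrial malic enzyme. Of these, 4 tumours were off dox, with the hairpin not induced, and 2 were on dox. Tumours with a control hairpin are not among the groups, so effects of the drug, of inducing any hairpin and of lower ME3 cannot be told apart, and the labels give neither the number of clones nor the age of the mice. The members were the genes whose symbol is RPL or RPS followed by digits and at most 1 letter A or X, together with RPLP0, RPLP1, RPLP2 and RPSA. They numbered 76 of the 57773 genes in the table, 45 of the large and 31 of the small subunit, and all 76 passed the filter on low counts. RPL41 had no symbol in the table and so fell outside the rule, and FAU, which encodes a ribosomal protein fused to a ubiquitin-like protein, is outside it too.

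The ribosome joins a small subunit, which reads the mRNA, to a large subunit, which forms the peptide bond. Each ribosomal protein is needed in about the same number of copies, the stalk proteins RPLP1 and RPLP2 excepted, and proteins made in excess are degraded. In vertebrates nearly all ribosomal protein mRNAs begin with a C followed by an unbroken run of pyrimidines, the 5′ terminal oligopyrimidine (TOP) motif, through which LARP1 and the kinase mTOR control their translation and stability together. The exocrine pancreas, from whose ducts this kind of cancer takes its name, is a tissue of very high protein synthesis.

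The start of the mRNA is shown for members on which the results turn, since it carries the element that the family shares. Each line gives 10 bases before and 20 bases from an annotated start in RefSeq (GRCh38.p14), 5′ to 3′ on the gene's strand, with the pyrimidine run that begins at the start in capitals. RPS24 and RPS10 were the members called lower, RPL13 had the next smallest p, RPLP0, RPLP2 and RPS6 stand for the acidic stalk and the S6 kinase substrate, and RPS26 and RPS29 are members without a run.
RPS24, chr10:78033853-78033882, plus strand: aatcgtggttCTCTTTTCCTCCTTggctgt
RPS10, chr6:34426050-34426079, minus strand: catgctccttCCTTTCCagccccggtaccg
RPL13, chr16:89560672-89560701, plus strand: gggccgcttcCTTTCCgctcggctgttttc
RPLP0, chr12:120201092-120201121, minus strand: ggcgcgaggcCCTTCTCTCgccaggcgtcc
RPLP2, chr11:809957-809986, plus strand: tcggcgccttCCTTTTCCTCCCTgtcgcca
RPS6, chr9:19380217-19380246, minus strand: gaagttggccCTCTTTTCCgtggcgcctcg
RPS26, chr12:56041908-56041937, plus strand: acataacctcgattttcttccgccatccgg
RPS29, chr14:49598691-49598720, minus strand: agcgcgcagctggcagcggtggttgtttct

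A C at the start followed by at least 4 further C or T, read on the sense strand only, was found at an annotated start of 45 of the 61 members in the RefSeq table, or 73.8%. Over all 27305 genes of that table the share was 5.14%. The median run of the 45 members was 8 bases, and the longest was 19 bases, in RPL39. RPL13 has other annotated starts, 1 with a run of 2 bases and 1 with none. Among the 16 members without such a run were RPL9, RPL15, RPS26, RPS28 and RPS29; the letters are those of the annotated start, which need not be the start used in these tumours.

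ME3 was at 44.1, 44.0, 38.6 and 37.9 CPM (counts scaled to the library's size with TMM factors) in off-dox tumours 1 to 4 and at 33.3 and 28.5 CPM in on-dox tumours 1 and 2. Both on-dox tumours were below all off-dox tumours, and the difference did not pass the test (log2 ratio, the log2 fold change of on dox over off dox, -0.41, SE 0.12, adjusted p = 0.148 with edgeR's quasi-likelihood test and Benjamini-Hochberg adjustment over 21308 genes). Library totals ranged from 23855338 to 26885699 counts. KRT8, an epithelial keratin, was at 866 to 1048 CPM off dox and at 689 and 776 CPM on dox, while the ductal keratin KRT19 had no count in any tumour but on-dox tumour 1, where it was at 0.0387 CPM. Markers of skeletal muscle were summed at 161 to 2305 CPM off dox, highest in off-dox tumour 4, and at 169 to 189 CPM on dox. Fibroblast markers were summed at 197 to 928 CPM off dox, highest in off-dox tumour 1, and at 173 and 381 CPM on dox.

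Ribosomal protein mRNAs took 4.71%, 3.83%, 4.00% and 4.31% of all counts in the off-dox tumours, in the order of their numbers, and 2.97% and 4.06% of those on dox. On-dox tumour 1 was below every other tumour, and on-dox tumour 2 lay within the off-dox range. The group means were 4.21% ± 0.386 (SD, n = 4) off dox and 3.52% ± 0.765 (SD, n = 2) on dox, so the difference between the means was smaller than the spread between the on-dox tumours. In bulk tissue, fewer cells of a type and less RNA per cell cannot be told apart.

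Of the 76 genes, 2 fell on dox, RPS24 and RPS10, and none rose (adjusted p under 0.05, edgeR's quasi-likelihood test). Over all 21308 genes tested, 1.06% were called, 0.591% lower and 0.465% higher. At an unadjusted p under 0.05, 14 members were lower and 0 higher, beside 7.42% and 6.84% of all genes. With DESeq2, 3 members were called lower (RPL13, RPS10 and RPS24; 2.26% of all genes) and 0 higher (1.65%), and with limma voom RPS24 alone (0.422%) and 0 higher (0.441%). With edgeR the other 74 members had adjusted p-values from 0.162 to 0.932.

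The log2 fold changes leaned below 0 throughout the family. They were below 0 in 73 of 76 members, beside 50.4% of all genes, and their median was -0.26, beside -0.00 over all genes tested. By subunit, the median was -0.26 in the large subunit, with 44 of 45 below 0, and -0.27 in the small subunit, with 29 of 31 below 0. The values ranged from -0.56 to 0.11 in the large subunit, and the lowest of the small subunit was -1.13. The median SE per gene was 0.17.

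**Figure D1:**
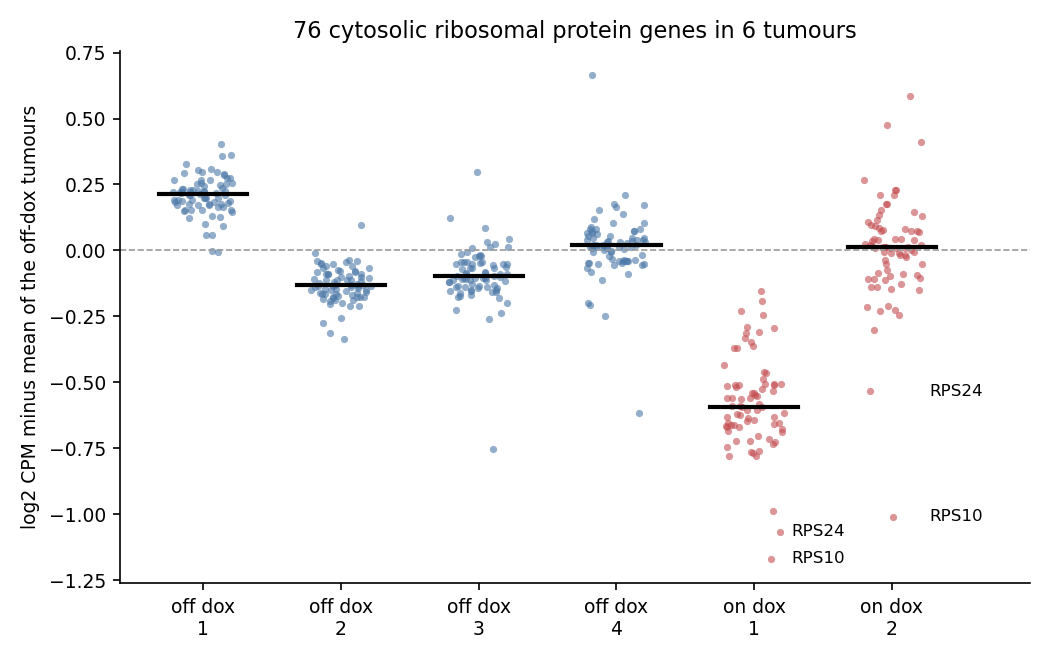
Log2 CPM of each of the 76 ribosomal protein genes minus its off-dox mean, by tumour; each point is a gene and the bar is the median. The medians were 0.21, -0.13, -0.10 and 0.02 in off-dox tumours 1 to 4, -0.59 in on-dox tumour 1 and 0.01 in on-dox tumour 2, and RPS24 and RPS10 lay below the rest in both on-dox tumours.

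Tumour by tumour, the members moved together. Against the off-dox mean, the median log2 difference was 0.21, -0.13, -0.10 and 0.02 in off-dox tumours 1 to 4, -0.59 in on-dox tumour 1 and 0.01 in on-dox tumour 2. On-dox tumour 1 was the lowest of the 6 tumours in 74 of 76 members, beside 24.6% of all genes, and lay below all off-dox tumours in 74 (29.3%) and within their range in 2 (40.6%). Off-dox tumour 1 was the highest in 65 members, beside 18.2%.

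In on-dox tumour 1 all 76 members were below their off-dox mean, by a log2 difference of -1.17 to -0.16. In on-dox tumour 2, 32 were below and 44 above it, the lowest at -1.01, and 60 lay within the off-dox range, beside 49.3% of all genes. Of the rest, 11 lay below all off-dox tumours (26% of all genes) and 5 above them (24.7%), which were RPL36A, RPL38, RPS25, RPS26 and RPS29. The lower median on dox rests on on-dox tumour 1. Leaving that tumour out, the median log2 fold change was 0.0053, 35 members were below 0 (53.7% of all genes) and none was called lower (0.146%; 3 members had an unadjusted p under 0.05); without on-dox tumour 2 it was -0.60, all 76 were below 0 (51.2%) and 22 were called lower (1.44%).

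**Figure D2:**
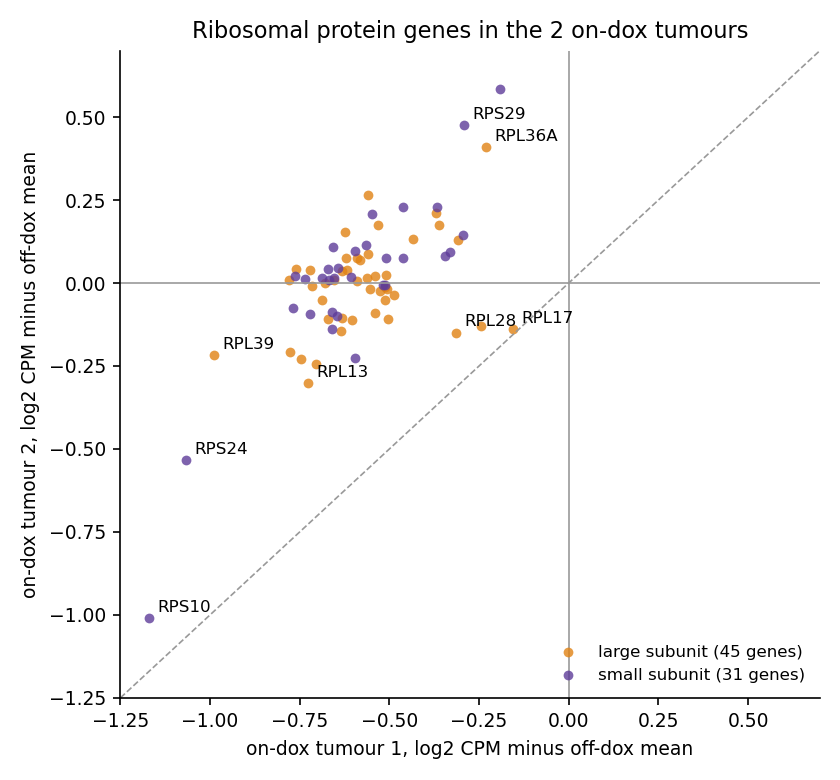
Log2 CPM minus the off-dox mean of each ribosomal protein gene in on-dox tumour 1 (horizontal) and on-dox tumour 2 (vertical); the dashed line marks equal values. All 76 genes lie left of 0 on the horizontal axis, 44 lie above 0 on the vertical axis, and RPS24 and RPS10 are the lowest on both axes.

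Other measures moved in on-dox tumour 1 as well. mRNAs of the mitochondrial genome took 0.529% of counts there, against 0.222% to 0.276% off dox and 0.26% in on-dox tumour 2. MALAT1 and NEAT1, long RNAs that stay in the nucleus, together made up 4.08% in that tumour, against 1.48% to 2.33% off dox and 1.77% in on-dox tumour 2. Their part in the lower ribosomal protein level of that tumour was not tested. Fibroblast markers, at 173 CPM, were at their lowest there too, and myeloid markers were summed at 20.8 to 42.7 CPM over the 6 tumours with TYROBP at 0 in all.

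RPS24, a small-subunit protein needed for the maturation of the small subunit's rRNA and mutated in some families with Diamond-Blackfan anaemia, was at 738, 605, 644 and 635 CPM in off-dox tumours 1 to 4 and at 312 and 452 CPM in on-dox tumours 1 and 2. Both on-dox tumours were below all off-dox tumours. The mean was 655 ± 57.8 CPM (SD, n = 4) off dox and 382 ± 98.6 CPM (SD, n = 2) on dox, a log2 ratio of -0.78 (SE 0.15, adjusted p = 0.0439 with edgeR's quasi-likelihood test). The two-sided exact permutation p was 0.0667, the smallest that 15 splits of 4 and 2 tumours can give. The call held without on-dox tumour 2 (adjusted p = 0.00992) and was lost when any other single tumour was left out, with an adjusted p of 0.142 and a log2 ratio of -0.54 without on-dox tumour 1.

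RPS10, a protein of the small subunit's head that ZNF598 marks with ubiquitin on stalled ribosomes, was at 38.5, 35.3, 40.5 and 21.5 CPM in off-dox tumours 1 to 4 and at 14.6 and 16.3 CPM in on-dox tumours 1 and 2. The groups did not overlap, but off-dox tumour 4 stood nearer to the on-dox tumours than to the other off-dox tumours. The counts behind these values were 1001, 871, 985 and 564 off dox and 378 and 404 on dox. The log2 fold change was -1.13 (SE 0.23, adjusted p = 0.0472 with edgeR's quasi-likelihood test; exact permutation p = 0.0667, two-sided). With off-dox tumour 4 left out the adjusted p was 0.0108, and when any other single tumour was left out the call was lost, at adjusted p-values up to 0.202.

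RPS10 was counted at a level far from its family: 68.5 CPM per kilobase of coding sequence off dox, against a median of 1051 over the members. A readthrough gene that shares its exons, RPS10-NUDT3, had no count in any tumour. When the counts of its pseudogene rows were added, the log2 fold change was -0.99 and the adjusted p 0.053. How much of the RPS10 mRNA its row holds was not tested.

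Both on-dox tumours were below all off-dox tumours in 11 members, beside 11.5% of all genes, among them RPL9, RPL13, RPL14, RPL15, RPL17, RPL23A, RPL28, RPS10, RPS24 and RPS28. None of the 76 had both above, beside 11.5% of all genes. At 11 of 76 the share of members below is close to that background.

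None of the members with the next smallest p-values passed the test. RPL13, a large-subunit protein, was at 1326, 1061, 1038 and 1250 CPM off dox and at 703 and 943 CPM on dox, with a log2 ratio of -0.51 (SE 0.15, adjusted p = 0.162). RPL23A, which receives the signal recognition particle at the tunnel exit, was at 517, 430, 411 and 431 CPM off dox and at 266 and 380 CPM on dox, with a log2 ratio of -0.47 (SE 0.15, adjusted p = 0.187). Their groups did not overlap, with on-dox tumour 2 close under the lowest off-dox tumour. RPL15, a large-subunit core protein, was at 878, 743, 687 and 818 CPM off dox and at 477 and 657 CPM on dox (log2 ratio -0.46, adjusted p = 0.188). RPL9 was at 653, 477, 489 and 539 CPM off dox and at 312 and 463 CPM on dox (log2 ratio -0.48, adjusted p = 0.241). RPS28, of the small subunit's mRNA exit, was at 104, 84.1, 78.8 and 90.9 CPM off dox and at 58.8 and 75.9 CPM on dox (log2 ratio -0.41, adjusted p = 0.200). In each of these 5 genes on-dox tumour 2 stood between on-dox tumour 1 and the off-dox tumours. RPL39, which lines the exit tunnel, had the third lowest log2 fold change at -0.56 (SE 0.20, adjusted p = 0.222), but its groups overlapped, at 129 to 184 CPM off dox and at 77.2 and 132 CPM on dox.

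**Figure D3:**
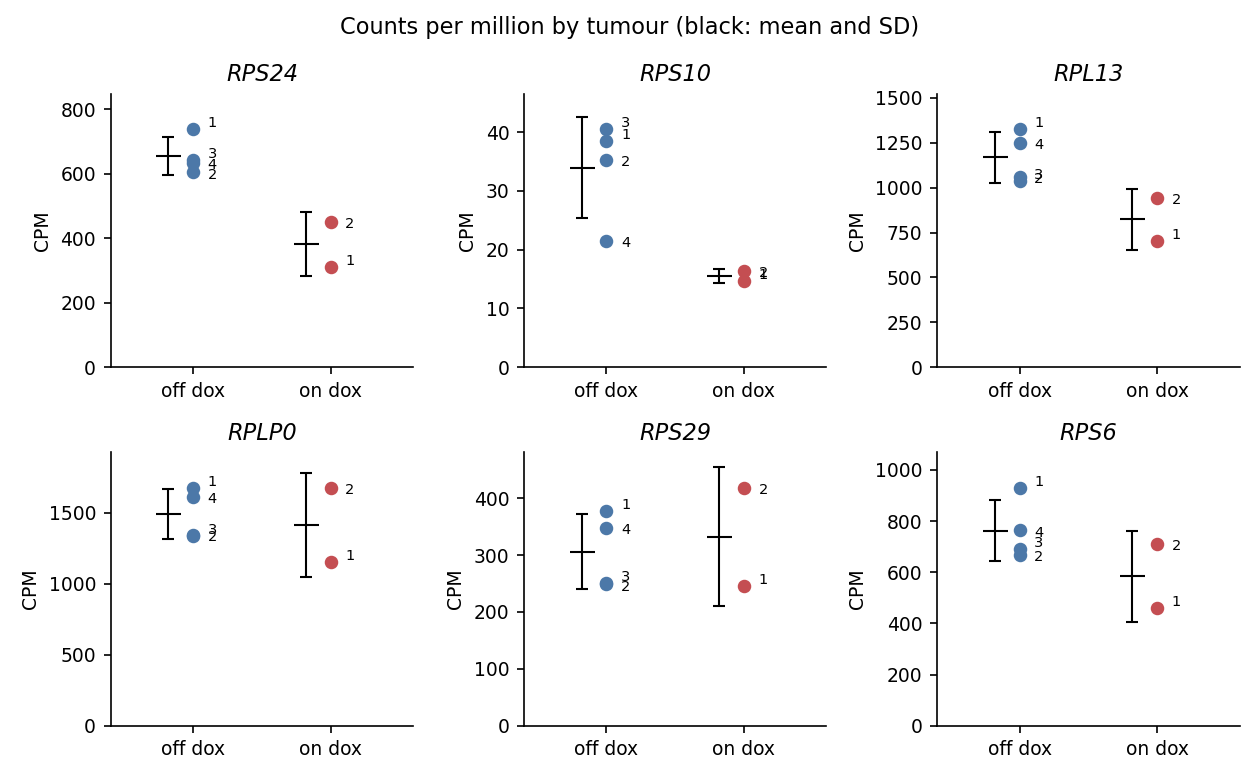
CPM of 6 ribosomal protein genes in each tumour, off dox (4 tumours) and on dox (2 tumours), with tumour numbers beside the points; black marks give the mean and SD, and each vertical axis starts at 0. RPS24, RPS10 and RPL13 were lower in both on-dox tumours than in any off-dox tumour, while on-dox tumour 2 reached the off-dox range for RPLP0 and RPS6 and lay above it for RPS29.

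The acidic stalk, which recruits elongation factors to the large subunit, had no member past the test. RPLP0, its base, was at 1676, 1346, 1334 and 1612 CPM off dox and at 1155 and 1675 CPM on dox (log2 ratio -0.08, SE 0.16, adjusted p = 0.884). RPLP2 was at 674, 495, 495 and 558 CPM off dox and at 426 and 637 CPM on dox (log2 ratio -0.06, SE 0.17). In both genes on-dox tumour 2 lay near the top of the off-dox range and on-dox tumour 1 below it. RPLP1 had a log2 ratio of -0.26 (SE 0.14).

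RPL5 and RPL11 form a particle with the 5S rRNA and, when free, bind MDM2, the ubiquitin ligase of p53. RPL5 was at 567 to 696 CPM off dox and at 430 and 592 CPM on dox (log2 ratio -0.27, SE 0.14, adjusted p = 0.433). RPL11 was at 507 to 640 CPM off dox and at 343 and 549 CPM on dox (log2 ratio -0.31, SE 0.17, adjusted p = 0.468). In both, on-dox tumour 1 was below and on-dox tumour 2 within the off-dox range.

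RPS6, the substrate of the S6 kinases, was at 930, 668, 689 and 764 CPM off dox and at 458 and 710 CPM on dox (log2 ratio -0.39, SE 0.18, adjusted p = 0.381). RPS3, at the mRNA entry, had a log2 ratio of -0.19, and RPS14 and RPS19, whose loss of 1 copy impairs red cell formation in people, had -0.22 and -0.30. RPSA, also known as a laminin receptor, had -0.25, and RPS27A, made as a fusion with ubiquitin, -0.12. None of these passed the test.

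Among large-subunit proteins with roles beyond the core, RPL10, which completes the peptidyl site, had a log2 ratio of -0.25, as did RPL13A, known for holding back translation of inflammatory mRNAs. RPL22, which binds a viral small RNA and is dispensable for most mouse cells, had -0.08, and RPL38, needed in mouse embryos for translation of Hox mRNAs, -0.09. Their adjusted p-values were 0.525, 0.525, 0.849 and 0.874, with SE of 0.16, 0.16, 0.14 and 0.19.

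Among the higher log2 fold changes were 0.12 for RPS29, 0.11 for RPL36A and -0.04 for RPS26. RPS29, a zinc-binding protein of the small subunit's head, was at 378, 248, 251 and 348 CPM off dox and at 246 and 419 CPM on dox. On-dox tumour 2 was the highest of the 6 and on-dox tumour 1 the lowest, and the adjusted p was 0.863. RPS26, of the mRNA exit channel, was at 84.8, 81.6, 83.9 and 90.03 CPM off dox and at 65.8 and 99.6 CPM on dox, so the off-dox tumours lay close together between the on-dox tumours.

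The members were also set against the family itself. As a share of all ribosomal protein counts, RPS24 took 1.52%, 1.57%, 1.64% and 1.48% in the off-dox tumours, in the order of their numbers, and 1.11% and 1.07% on dox. The on-dox shares were under every off-dox share and close to each other. Relative to the summed counts of the family, its log2 ratio was -0.51 (SE 0.19, adjusted p = 0.253 with edgeR's quasi-likelihood test on counts scaled to that sum; exact permutation p = 0.0667, two-sided), which did not pass the test. RPS10 took 0.079%, 0.0917%, 0.103% and 0.0501% off dox and 0.0518% and 0.0387% on dox, so its groups overlapped on this scale (log2 ratio -0.84, SE 0.27, adjusted p = 0.21).

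With this scaling, which moves the median log2 fold change of all genes to 0.30, no member was called (2 had an unadjusted p under 0.05). The share lay below the off-dox range in both on-dox tumours for 10 members, beside 2.74% of all genes, and above it for 11, beside 18%. The scaling centres the family by construction and moves most other genes up. The shares of all genes are therefore not a like background, and whether the counts of 10 and 11 are an excess cannot be judged from them. Those below included RPS24, RPL13, RPL9, RPL23A, RPL15, RPS15A, RPS6, RPS7 and RPS15. Those above were RPS9, RPL35A, RPL27A, RPS4X, RPLP0, RPL22, RPLP2, RPS26, RPS2, RPL36A and RPS29. RPLP0 took 3.45%, 3.50%, 3.40% and 3.76% off dox and 4.09% and 3.97% on dox. RPLP2 took 1.38%, 1.29%, 1.26% and 1.30% off dox and 1.51% in each on-dox tumour.

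**Figure D4:**
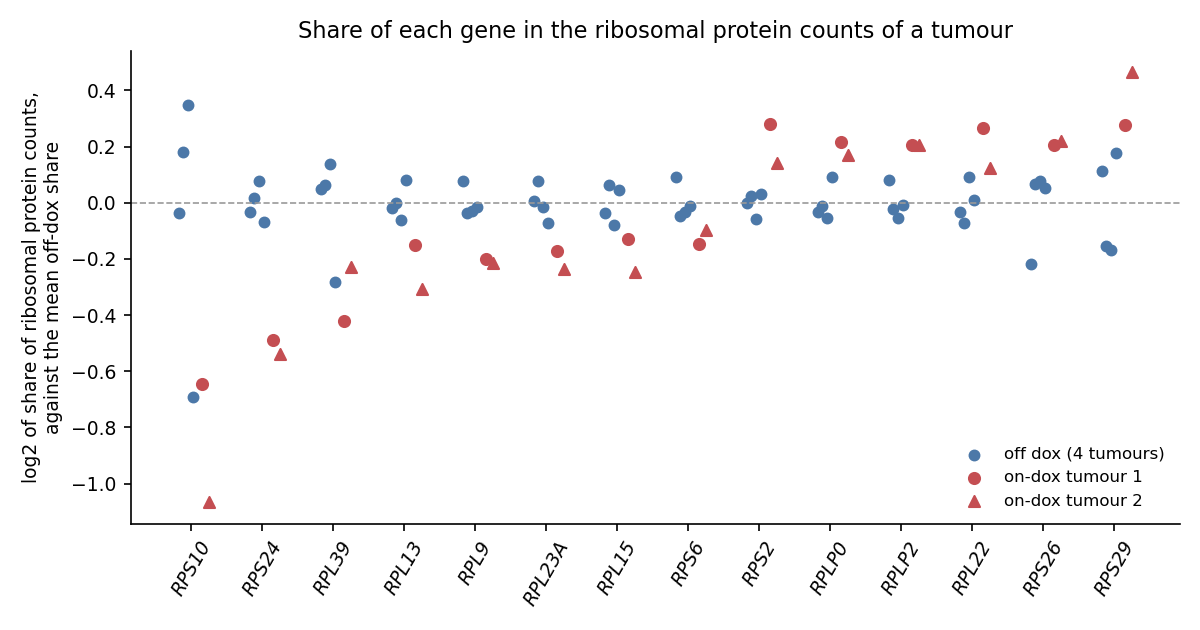
Log2 of the share that each of 14 genes took of a tumour's ribosomal protein counts, against the mean off-dox share. RPS24 lies low and RPLP0, RPLP2 and RPS29 lie high in both on-dox tumours, whereas an off-dox tumour reaches the on-dox values of RPS10.

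Members were split by the pyrimidine run at an annotated start. The median log2 fold change was -0.25 in the 45 members with a run and -0.26 in the 16 without, and the medians in on-dox tumour 1 were -0.59 and -0.55. RPS24, with a run of 14 bases, and RPLP2, with 13, lay below and above their off-dox shares, respectively, in both on-dox tumours. In RPL39, with the longest run at 19 bases, the on-dox and off-dox shares overlapped. A relation between run length and share was not tested.

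Levels per length spanned a wide range. Off dox the highest were RPL37 at 3453, RPL37A at 2768, RPS18 at 2666 and RPS27 at 2350 CPM per kilobase of coding sequence, and the quartiles of the 76 were 735 and 1367. Far below stood RPL17 at 33.3, RPL36A at 36.9 and RPS10 at 68.5 CPM per kilobase, and RPS26 was at 247.

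These low members overlap other annotated genes. RPL17, RPL36A and RPS10 each share exons with a readthrough gene (RPL17-C18orf32, RPL36A-HNRNPH2 and RPS10-NUDT3), and all 3 readthrough genes had 0 counts in all 6 tumours. Pseudogene rows of RPL17 held 244% of the counts of RPL17 itself, and those of RPL36A 215%. For these 3 genes the row may hold only part of the gene's reads, so their levels are uncertain, and the direction of RPL36A turned to -0.0919 when pseudogene rows were added.

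**Figure D5:**
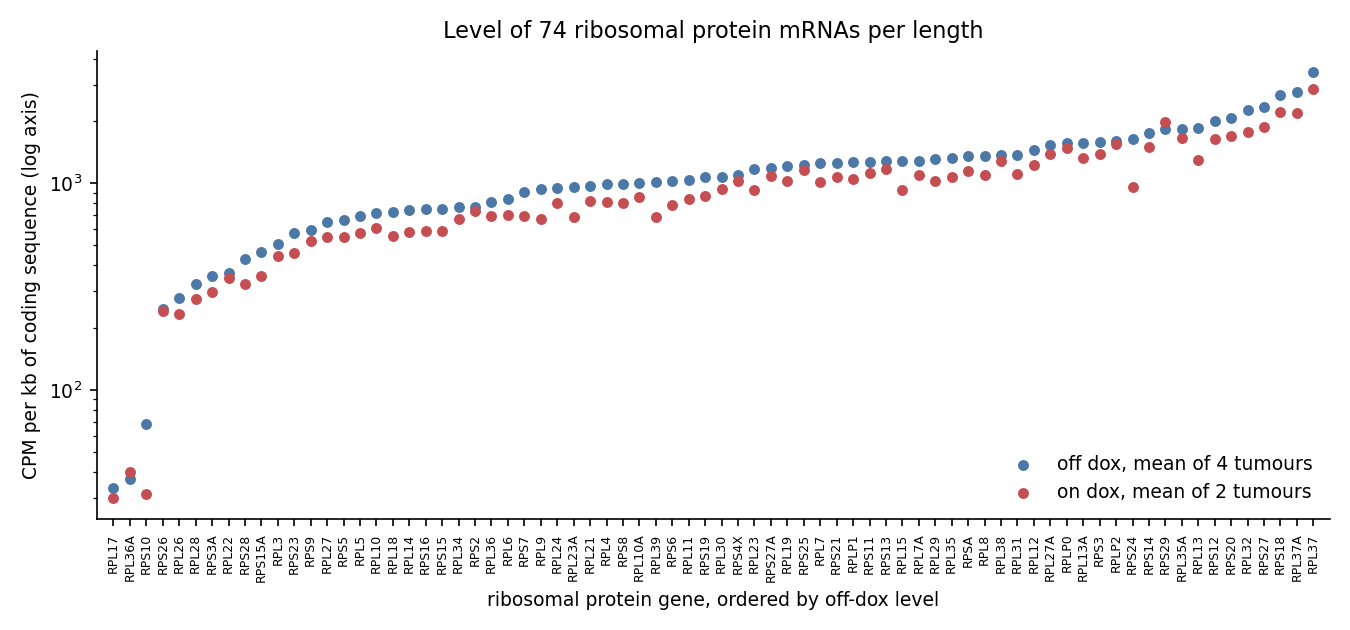
CPM per kilobase of coding sequence for 74 ribosomal protein genes, on a log axis, as the mean of 4 off-dox and of 2 on-dox tumours, ordered by the off-dox level. RPL17, RPL36A and RPS10 lie apart at the low end, and the on-dox mean lies under the off-dox mean in most genes, by the most in RPS10 and RPS24.

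Off dox, the coefficient of variation of the members between tumours had a median of 11.7%. It was lowest in RPL28, at 2.07%, and reached 21.7% in RPS29 and 25.2% in RPS10. RPL28 was at 129 to 136 CPM off dox and at 107 and 120 CPM on dox, a log2 ratio of -0.23 with the smallest SE of the family, 0.09 (adjusted p = 0.277). RPL17 was at 17.1 to 19.1 CPM off dox and at 16.5 and 16.7 CPM on dox.

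The many processed pseudogenes of the family share sequence with their parents, and reads of one can be counted to the other. There were 1579 pseudogene rows, of which 1169 had a count and 538 were tested, with a median log2 fold change of -0.11. None was called by edgeR's quasi-likelihood test or limma voom, and DESeq2 called 4, RPL7P1, RPL13P12, RPL32P3 and RPS28P7. At an unadjusted p under 0.05 with edgeR, 28 of the 538 were lower and 12 higher, both smaller shares than the 7.42% and 6.84% of all genes. Their summed counts were 2.60% to 3.82% of those of the parents, and they held under 5% of the parent's counts for 59 of 76 parents. Against the off-dox mean the median of the tested pseudogene rows was -0.06 in on-dox tumour 1, where that of the parents was -0.59. That median gives rows with few counts the same weight as rows with many. The summed CPM of the tested rows was lowest in on-dox tumour 1, at 1027. It was 1214 to 1400 off dox and 1242 in on-dox tumour 2. RPS27AP16 had 2533, 493, 635 and 1969 counts off dox and 405 and 2509 on dox, while RPS27A was at 477 to 600 CPM off dox and at 433 and 583 CPM on dox. RPL7P1 had 172 to 186 counts off dox, 593 in on-dox tumour 1 and 177 in on-dox tumour 2.

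RPL41 and FAU, outside the symbol rule, were also lowest in on-dox tumour 1. RPL41 was at 311, 268, 299 and 272 CPM off dox and at 195 and 295 CPM on dox (log2 ratio -0.23, SE 0.15, adjusted p = 0.537). FAU had a log2 ratio of -0.03. Of 8 paralogues 7 were tested and 0 were called by edgeR, DESeq2 or limma voom or had an unadjusted p under 0.05 with edgeR, with a median of -0.12; RPL22L1, the paralogue of RPL22, was at 124 to 188 CPM off dox and at 85.2 and 153 CPM on dox.

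Genes that work with the ribosome were taken from lists by role. Of 20 tested genes for elongation and other TOP mRNAs, 0 were called by edgeR, DESeq2 or limma voom and 1 had an unadjusted p under 0.05, with a median log2 fold change of -0.11 and a median of -0.28 in on-dox tumour 1. IPO7, an importin, had the smallest p of that list, at a log2 ratio of 0.29 (SE 0.10, adjusted p = 0.198). Of 19 genes of RNA polymerase I, which transcribes rRNA, and of 49 genes of ribosome biogenesis, 0 were called by edgeR, DESeq2 or limma voom, with medians of -0.06 and -0.05 and with 1 and 2 genes at an unadjusted p under 0.05. FBL, the methyltransferase of box C/D particles, was at 78.6 to 83.7 CPM off dox and at 64.1 and 71.4 CPM on dox (log2 ratio -0.28, adjusted p = 0.190).

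Among 22 initiation factors 1 fell, EIF4G2, a relative of EIF4G that does not bind the cap-binding protein. It was at 1329, 1437, 1364 and 1368 CPM off dox and at 929 and 882 CPM on dox, so both on-dox tumours were well below all off-dox tumours (log2 ratio -0.60, SE 0.11, adjusted p = 0.0329 with edgeR's quasi-likelihood test). Among 16 genes that control TOP mRNA translation 1 fell, DDIT4, an inhibitor of mTOR complex 1, at 45.1 to 58.3 CPM off dox and 30.1 and 33.7 CPM on dox (log2 ratio -0.69, SE 0.13, adjusted p = 0.0377). The other members of that list included RPS6KB1, an S6 kinase, at 0.36 (adjusted p = 0.147), and LARP4 at 0.42 (adjusted p = 0.106), which DESeq2 called. LARP1 had a log2 ratio of 0.27 (SE 0.12, adjusted p = 0.341 with edgeR's quasi-likelihood test). At an unadjusted p under 0.05 with that test, 2 of the 16 were lower and 4 higher, beside 7.42% and 6.84% of all genes. Among 10 genes that sense free ribosomal proteins or stalled ribosomes 1 fell, CDKN2A, whose ARF product binds MDM2, at 21.3 to 25.1 CPM off dox and 13.0 and 12.2 CPM on dox (log2 ratio -0.84, SE 0.13, adjusted p = 0.0176). Without on-dox tumour 1 none of the 3 was called, at adjusted p-values of 0.0714, 0.16 and 0.0593 in the order named. CDKN2A stayed called when any other single tumour was left out, while EIF4G2 was also lost without each off-dox tumour (up to 0.106) and DDIT4 without off-dox tumours 1, 2 or 3 (up to 0.0896). In these 3 genes, unlike most ribosomal protein genes, on-dox tumour 2 was as low as on-dox tumour 1 or nearly so; the difference between the patterns was not tested.

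Proteins of the mitochondrial ribosome are encoded by a separate set of nuclear genes. Of 73 tested, 0 were called by edgeR or limma voom and 2 by DESeq2, MRPL10 and MRPL52, with 7 lower and 1 higher at an unadjusted p under 0.05, beside 7.42% and 6.84% of all genes. Their median log2 fold change was -0.14, and 62 were below 0, beside 50.4% of all genes. Their median was -0.37 in on-dox tumour 1 and 0.06 in on-dox tumour 2, against -0.59 and 0.01 for the cytosolic family. The part of RNA quality or composition in either was not tested.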

How the data were processed

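RNA of 6 tumours was sequenced, 4 off dox and 2 on dox. Per the labels, the input was total RNA from a Trizol extraction, made into libraries by usual Illumina protocols. The authors deposited whole-number counts per gene. The submitters' processing notes name STAR, HTSeq, limma and hg19. Not given in the sources used here are settings, strand, annotation release and what was done with mouse reads, so host reads and antisense overlap can be part of the counts. Of 57798 lines, 25 with a repeated identifier were removed. Genes without a symbol (24323) were named by identifier from GENCODE where possible (18931), without use of its coordinates. Coding lengths came from the same annotation and start sequences from RefSeq.

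The main test was edgeR 4.0.16 on R 4.3.3 (TMM, filterByExpr, quasi-likelihood F test, Benjamini-Hochberg over 21308 genes, threshold 0.05), with DESeq2 1.42.0 and limma 3.58.1 voom as alternatives beside other scalings and filters, a replicate block, pseudogene counts added to parents, and leaving out each tumour. Tables and figures used Python 3.11.15, pandas 2.3.3 and matplotlib 3.10.9. Log2 values per tumour used a prior count of 1. The test was checked on simulated counts. Members and lists were chosen with earlier results of these data known; genes named are members by role, the 8 smallest p-values, the 4 highest and 4 lowest log2 fold changes and the 4 highest and 4 lowest levels per length, and of other lists up to 3 by p; some genes that the rules take are not reported here. LARP1, RPL28 and the pseudogenes RPS27AP16 and RPL7P1, genes called by DESeq2 alone, and members listed only for the position of their tumours were singled out after their values were seen. Labels name separate tumours of 1 cell line, so p-values measure the spread between tumours, which differed beyond counting noise (chi-square per degree of freedom 9.65 to 21.8 off dox and 52.7 on dox).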

Additional observations from a re-analysis of the deposited data

Results flagged for a closer look

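In 2 members, off-dox tumour 1 stood apart from the other off-dox tumours by Dixon's criterion for 4 samples, which flags some groups by chance alone. RPL10 was at 544 CPM in off-dox tumour 1 and at 425 to 444 CPM in the other 3, a gap of 0.84 of the whole range. RPL37A was at 938 CPM in off-dox tumour 1 and at 690 to 730 CPM in the other 3, likewise 0.84 of the range. Of the 76 members, 65 had their highest value in that tumour.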

How the results depend on the processing

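Against 225 genes called in all and 2 members called (RPS24 and RPS10), the counts were 770 and 6 with no low-count filter, 719 and 3 with DESeq2, 533 and 2 at an adjusted p under 0.1, 53 and 1 with a replicate block, and 72 to 562 and 0 to 22 on leaving out each tumour. Robust quasi-likelihood, limma voom and added pseudogene rows left 1 member called, and scaling to ribosomal protein counts, chosen after seeing the data, left 0. RPS10 had adjusted p-values of 0.0518, 0.0864, 0.053 and 0.21 under these last 4, and RPS24 had 0.301 with the block (log2 fold change -0.83) and 0.253 with that scaling. Deviations of tumours with the same replicate number showed no pairing (correlations -0.03 and 0.01 over 21308 genes). With 2 on-dox tumours these correlations cannot exclude it, and the labels do not say whether the numbers pair the tumours. On leaving out each tumour the log2 fold change ranged from -1.07 to -0.54 for RPS24 and from -1.30 to -1.04 for RPS10, and the family's median from -0.60 to 0.0053, the upper end without on-dox tumour 1; the median was -0.32 to -0.26 under the other alternatives that include all tumours, except that scaling to ribosomal protein counts, which centres the family by construction, gave 0.00305. Context lists had 3 genes called, 6 with DESeq2 and 0 to 20 on leaving out each tumour, with 0 without on-dox tumour 1. Of the 3, EIF4G2, DDIT4 and CDKN2A, none was called with the replicate block (adjusted p = 0.525, 0.269 and 0.16 with edgeR) or with scaling to ribosomal protein counts (0.484, 0.377 and 0.315). For 29 other named members, 313 of 319 values over 11 alternatives kept their direction and side of the threshold, 5 passed it (RPL13, RPL15, RPL23A and RPL39 with no low-count filter and RPL13 with DESeq2) and RPL36A reversed to -0.0919 with pseudogene rows added. Without on-dox tumour 1, 13 of them reversed. The ranges on leaving out each tumour, for those that changed sign under at least 1, were -0.57 to 0.0089 for RPL10, -0.32 to 0.13 for RPL22, -0.25 to 0.40 for RPL36A, -0.64 to 0.0306 for RPL37, -0.57 to 0.26 for RPL38, -0.37 to 0.17 for RPLP0, -0.39 to 0.20 for RPLP2, -0.61 to 0.0917 for RPS14, -0.66 to 0.0347 for RPS18, -0.68 to 0.0057 for RPS19, -0.37 to 0.23 for RPS26, -0.78 to 0.0137 for RPS27, -0.36 to 0.0779 for RPS27A, -0.32 to 0.45 for RPS29 and -0.52 to 0.0715 for RPS3. The cause of these changes was not tested. Fits with a single on-dox tumour take its spread from the off-dox group. With 2 on-dox tumours no exact permutation p can pass 0.05.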
